A study of Homo sapiens with 2 samples.

Results

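In the TRPS1-WT peak list, 755 peaks lay at promoters where the TRPS1-MT (R544Q) list had no peak. They were selected on measured values, the positions of the called peaks: the peak midpoint had to lie within 1 kb of the canonical transcription start site (TSS) of a protein-coding gene on chromosomes 1 to 22 or X, and no TRPS1-MT peak was allowed to overlap the window from 2 kb upstream to 2 kb downstream of that TSS. The 755 peaks, called members here, were 755 of the 173296 TRPS1-WT peaks on these chromosomes and marked 719 promoters of 719 genes. That was 3.63% (95% Wilson interval 3.38 to 3.90) of the 19819 canonical promoters, and 6.99% (6.51 to 7.49) of the 10292 with a TRPS1-WT peak within 1 kb. The mirrored rule, a TRPS1-MT peak and no TRPS1-WT peak, chose 2004 promoters, 10.1% of all. Both lists had a peak within 1 kb at 8860 promoters (44.7%), which are called shared promoters below, and neither list had one in the window at 4351 (22.0%). These counts are the rule itself and were not tested.

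The cells were HCT116, a human colorectal carcinoma line with epithelial features and, by the study's account, little TRPS1 of its own. They carried a stable lentiviral transgene for Flag-tagged TRPS1, either of wild-type sequence (TRPS1-WT) or with the R544Q substitution (TRPS1-MT), and both pools still had their endogenous gene. Flag CUT&Tag was performed on 1 library of each, so the signal reports the tagged, overexpressed protein, and no untagged control library was used here. Neither condition had a second library, so there is no replicate error, the values compare libraries rather than conditions, and the intervals below (at the 95% level) cover counting error only.

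TRPS1 is a zinc finger protein with a GATA-type DNA-binding domain that is known mainly as a transcriptional repressor. In CUT&Tag an antibody brings a Tn5 transposase to the protein, and the enzyme cuts the DNA nearby, with some preference for open chromatin. Promoters are the stretches around a TSS where general transcription factors assemble. Many of them, above all those of genes active in most cell types, lie in CpG islands, which are rich in the dinucleotide CG and often hold sites for SP/KLF, NFY, ETS and NRF1 proteins. Promoters of genes used in few tissues more often lack an island, and some of these carry a TATA box instead.

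The DNA under the summits of the strongest members is given first, because the sequence content of the members is described further on. The 6 windows are hg19 (GRCh37), 75 bp on each side of the TRPS1-WT summit, written 5′ to 3′ on the strand of the gene. Capitals mark matches, on both strands, to the sequences searched. In these windows they were the SP/KLF box GGGCGG, bound by SP1 and related zinc finger proteins, and the NFY box CCAAT. Matches also came from the YY1 sequence AAGATGGC, the TEAD sequence CATTCC and the TATA sequence TATAAA. The GATA sequence was taken as GATA with an A or T before it and an A or G after it. Adjoining or overlapping matches run together, as CCGCCC with CCAAT does at PHC2.
PHC2, chr1:33896701-33896851, minus strand: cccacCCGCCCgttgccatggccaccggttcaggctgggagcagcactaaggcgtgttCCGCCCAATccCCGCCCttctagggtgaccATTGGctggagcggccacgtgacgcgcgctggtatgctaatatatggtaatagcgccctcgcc
TAF12, chr1:28969748-28969898, minus strand: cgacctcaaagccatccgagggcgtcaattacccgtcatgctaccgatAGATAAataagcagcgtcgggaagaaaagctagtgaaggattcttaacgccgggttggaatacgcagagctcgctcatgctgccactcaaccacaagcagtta
WFDC10A, chr20:44258279-44258429, plus strand: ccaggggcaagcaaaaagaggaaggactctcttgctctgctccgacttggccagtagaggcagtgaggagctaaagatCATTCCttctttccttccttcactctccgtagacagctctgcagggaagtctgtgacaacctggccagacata
COLGALT1, chr19:17666126-17666276, plus strand: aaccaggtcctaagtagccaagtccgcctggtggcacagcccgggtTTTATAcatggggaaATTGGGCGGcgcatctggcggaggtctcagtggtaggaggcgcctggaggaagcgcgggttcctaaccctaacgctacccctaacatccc
TCTN2, chr12:124155607-124155757, plus strand: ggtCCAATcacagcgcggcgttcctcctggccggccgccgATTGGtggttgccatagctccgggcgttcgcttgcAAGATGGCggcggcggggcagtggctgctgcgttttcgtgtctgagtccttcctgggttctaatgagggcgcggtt
VKORC1L1, chr7:65337988-65338138, plus strand: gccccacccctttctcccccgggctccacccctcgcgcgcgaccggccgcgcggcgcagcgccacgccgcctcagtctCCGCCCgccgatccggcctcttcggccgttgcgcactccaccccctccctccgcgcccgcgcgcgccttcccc
The windows differed widely in composition. GC content ran from 51.0% at TAF12 to 80.8% at VKORC1L1, and the number of CG dinucleotides from 2 at WFDC10A to 26 at VKORC1L1. PHC2 held 3 SP/KLF and 2 NFY matches, TCTN2 held 2 NFY matches and 1 YY1 match, and TAF12 held a single GATA match. A match is a description of the letters and does not show that a factor was bound.

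The strongest member by the −log10 p of the authors' peak caller was at the promoter of PHC2, a component of Polycomb repressive complex 1. The TRPS1-WT peak (chr1:33896610-33896936) held 155 tags at its summit (exact Poisson interval 132 to 181) over a local background of 16.6. Its deposited fold was 8.84 and its −log10 p was 92.5. Tags are the sequenced fragments piled up at the summit, as recovered from the fold and −log10 p in the list. The TRPS1-MT list had no peak in the window, and its nearest peak began 2349 bp from the TSS with 314 tags. At that site, about 3 kb upstream, the TRPS1-WT list also had a peak, of 219 tags, so of the pair of strong TRPS1-WT peaks beside PHC2 only the one at the TSS lacked a TRPS1-MT counterpart.

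TAF12, a subunit of the general transcription factor TFIID, came next, with 120 tags and a −log10 p of 88.0. Here too a strong site lay upstream, with 220 tags in the TRPS1-WT list and 337 tags in the TRPS1-MT list, while the TRPS1-MT peak nearest to the TSS was 3815 bp away and held 19 tags. WFDC10A, one of the WAP domain genes clustered on chromosome 20, had 68 tags over a background of 1.76, a fold of 25.0. Its nearest TRPS1-MT peak was 6286 bp away and held 11 tags. WFDC10A was 1 of 3 among the 20 strongest members with a promoter that was not CpG-rich, together with AXL and KRT15.

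COLGALT1, which adds galactose to collagen, had 68 tags, and TCTN2, a tectonic protein of the ciliary transition zone, had 56. VKORC1L1, a vitamin K epoxide reductase, had 52 tags and stood most alone of these 6, since no TRPS1-MT peak lay within 20 kb of its TSS and the nearest was 32997 bp away. AXL, a receptor tyrosine kinase that binds GAS6, had 98 tags. Inside AXL, about 6 kb downstream of the TSS, both lists had a peak, with 295 tags in the TRPS1-WT list and 215 tags in the TRPS1-MT list.

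The other 13 of the 20 strongest members held between 48 and 199 tags. Several encode enzymes and signalling proteins: MAP2K4, a kinase upstream of JNK, with 74 tags, MAP3K14, the NF-kB inducing kinase, with 199, RDH14, a retinol dehydrogenase, with 58, and AHCYL1, which regulates the IP3 receptor, with 48. Others serve trafficking and the nucleus, among them GOLGA5, a golgin, with 56 tags, RANGRF, which binds the GTPase RAN, with 71, STARD3NL, a late endosomal membrane protein, with 62, MIDEAS, part of a histone deacetylase complex, with 60, and FBXO31, an F-box protein, with 89. SOWAHB had 66 tags, ANKRD46 had 74 and JRK had 53. KRT15, a keratin of basal epithelia, had 159 tags. At KRT15 and MAP3K14 the local background was high, at 34.7 and 57.6, and the fold was low, at 4.48 and 3.41. The TRPS1-MT list had 262 tags at 2801 bp from the KRT15 TSS and 238 tags at 2033 bp from the MAP3K14 TSS, so these members sat inside stretches with signal in both libraries.

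Most members were weaker than these. The median member held 16 tags (quartiles 11 and 24, range 9 to 199), at a fold of 6.52, and the median −log10 p was 11.9. At least 20 tags were found in 269 members (35.6%), at least 50 in 45 and at least 100 in 7. For comparison, TRPS1-WT peaks at shared promoters held a median of 39 tags (quartiles 24 and 74). Of the members, 67.3% had the narrowest width in the list, 168 bp, against 21.5% of the TRPS1-WT peaks at shared promoters. The members were nevertheless typical of the TRPS1-WT list as a whole, where the median peak held 14 tags and the median member ranked at percentile 51.2 by −log10 p.

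The share of promoters found in the TRPS1-WT list only went down steadily with the strength of the TRPS1-WT peak. Of 343 promoters whose strongest TRPS1-WT peak had at most 10 tags, 137 (39.9%) were members. The share was 13.9% at 17 to 20 tags, 3.80% at 31 to 50 tags and 0.356% (7 of 1966; 0.173 to 0.733) above 100 tags. The 7 promoters above 100 tags included PHC2, TAF12, KRT15 and MAP3K14. The mirrored class had the same form in the TRPS1-MT list, from 64.3% at no more than 10 tags to 0.370% above 100. At 21 to 30 tags it was 31.7% in the TRPS1-MT list and 6.50% in the TRPS1-WT list. Tags of the lists are not on 1 scale: the TRPS1-MT list was longer (325557 peaks) and its background pileup was 1.77 tags in place of 1.10. The narrowest peak was 280 bp in the TRPS1-MT list and 168 bp in the TRPS1-WT list. Per kb of that width the background was nearly equal, at 6.31 tags in TRPS1-MT and 6.57 in TRPS1-WT.

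**Figure D1:**
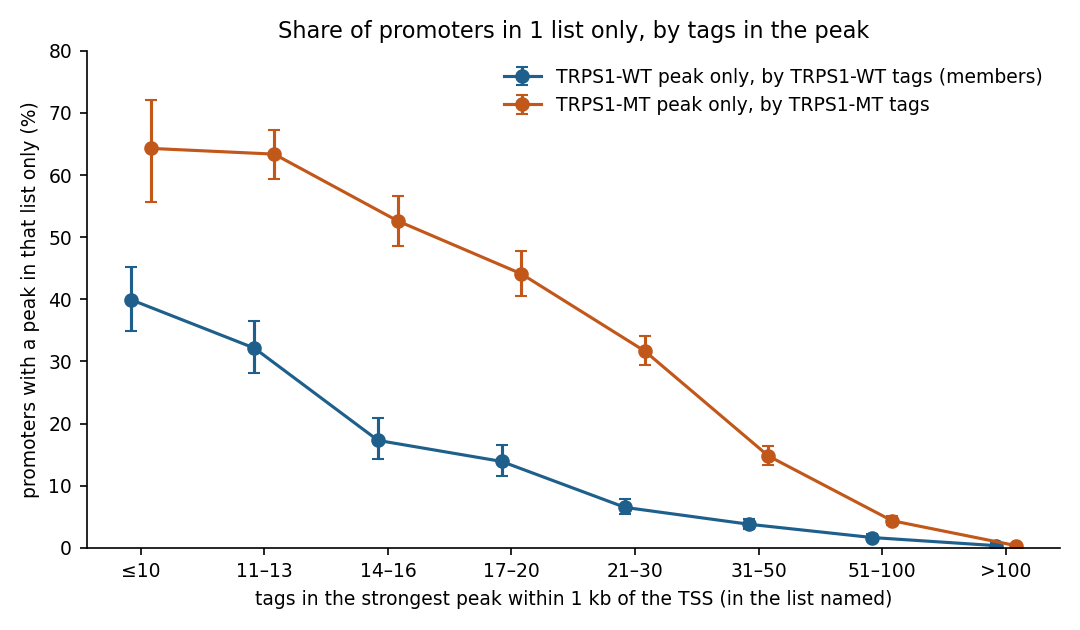
Percent of promoters with a peak in 1 list only (vertical axis) by the number of tags in the strongest peak of that list within 1 kb of the TSS (horizontal axis), with 95% Wilson intervals, for TRPS1-WT (members) and for the mirrored class in TRPS1-MT. Both curves fall towards 0 as the tags rise, from 39.9% and 64.3% at no more than 10 tags to 0.356% and 0.370% above 100.

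A missing peak is not a count of 0. At its lowest background the TRPS1-MT list called peaks from 10 tags upwards and the TRPS1-WT list from 9, so fewer tags than that leave no entry in either list. How many TRPS1-MT tags lay at the members below the calling threshold was not tested, since the lists hold called peaks.

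TRPS1-MT peaks were common near the members. The nearest one lay a median of 3836 bp from the TSS (quartiles 2712 and 6023), and at 476 of the 719 promoters (66.2%) it lay between 2 and 5 kb away, just beyond the window. It lay 20 to 50 kb away at 17 promoters and over 50 kb away at 3, one of them HTR1A, a serotonin receptor gene, at 73233 bp. At promoters without a peak in either list the median was 5441 bp. The nearest TRPS1-MT peak was mostly weak, with a median of 19 tags, and reached 100 tags at 44 promoters (6.12%). In 139 cases (19.3%) it overlapped a TRPS1-WT peak.

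Beyond the window, whether TRPS1-WT peaks near the members had a TRPS1-MT counterpart went with their strength. Of all 1928 TRPS1-WT peaks within 20 kb of a member TSS but outside its window, 761 (39.5%; 37.3 to 41.7) overlapped a TRPS1-MT peak, against 30.4% of the whole TRPS1-WT list. Of the TRPS1-WT peaks with at least 50 tags in the same places, 274 of 300 (91.3%; 87.6 to 94.0) overlapped a TRPS1-MT peak, against 93.1% of all TRPS1-WT peaks of that strength. With at least 100 tags it was 132 of 134. Of the 719 genes, 430 (59.8%) had an annotated TSS more than 2 kb from the canonical one, against 64.9% of all genes and 73.1% of those with shared promoters. Of these 430, 247 (57.4%) had a TRPS1-MT peak within 1 kb of such an alternative TSS, a share that was not computed for other genes. A gene in this set was thus often not free of TRPS1-MT peaks as a whole.

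The limits of the rule cut through a continuous range of distances. FBLN2, which encodes the matrix protein fibulin 2, was the last inside the midpoint limit, at 1000 bp with 35 tags, followed by NYAP1 at 996 bp and TMCC3 at 994 bp with 9 tags each. KRT35 and TLE7 at 1002 bp and ARID3A at 1003 bp were just outside, with 21, 16 and 22 tags. At the other limit, the nearest TRPS1-MT peak of COLGALT1, IL17D and OR2S2 was 2003 bp from the TSS and held 24, 13 and 12 tags. CCL8 at 1999 bp, MYOZ2 at 1998 bp and SLC26A11 at 1996 bp were just outside, with 12, 40 and 29 TRPS1-MT tags. A wider or narrower window therefore changes which genes belong, as the closing section gives in numbers.

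Member peaks were concentrated near the TSS, on its upstream side. Of the 779 pairs of a member peak and a member TSS, 283 (36.3%; 33.0 to 39.8) had the midpoint within 200 bp of the TSS, where an even spread over the 1 kb on each side would give 20%. Midpoints lay upstream in 59.2% of pairs. By the GENCODE annotation the summit lay upstream of the gene in 58.2%, in a UTR exon in 10.7%, in a coding exon in 6.55% and in an intron in 24.4%. Among the 20 strongest, TCTN2, VKORC1L1, ANKRD46 and MIDEAS had the summit in a UTR exon and the other 16 had it upstream.

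Members lay further from the TSS than the TRPS1-WT peaks of shared promoters and nearer than the peaks of the mirrored class. The share within 200 bp was 43.6% at shared promoters, which differs by −7.26 percentage points (−10.7 to −3.70, by Newcombe's method), and 24.2% for TRPS1-MT peaks at promoters without a TRPS1-WT peak, a difference of 12.1 points (8.33 to 15.9). The median distance was 316 bp for members, 237 bp for shared promoters and 458.5 bp for the mirrored class. The mirrored class comes from the other library, where the narrowest peak was 280 bp in place of 168 bp. It was not compared with members at like strength. Peak strength moved with the difference between members and shared promoters. When members and shared promoters were compared at like numbers of TRPS1-WT tags, in classes of 9 to 13, 14 to 20, 21 to 50 and 51 or more, the interval of the difference included 0 in each class, for example 29.4% against 30.1% at 9 to 13 tags and 57.4% against 51.5% at 51 or more.

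The genome sequence of the promoters, which the rule did not use, differed more. A promoter was called CpG-rich when the 500 bp on each side of the TSS had at least 50% GC and an observed to expected CpG ratio of at least 0.6. By this definition 410 of the 719 members (57.0%; 53.4 to 60.6) were CpG-rich, against 86.3% of shared promoters, a difference of −29.3 points (−33.0 to −25.6). The mirrored class was at 54.2%, and its difference from the members of 2.83 points had an interval that included 0 (−1.41 to 7.02). Promoters without a peak in either list were at 36.5%, which put the members 20.5 points above them (16.6 to 24.4). Median GC content hardly separated members from shared promoters, at 62.2% and 62.5%, whereas the median CpG ratio was 0.676 and 0.780.

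Unlike position, this difference remained at like strength. At 9 to 13 TRPS1-WT tags 42.9% of members and 71.3% of shared promoters were CpG-rich, a difference of −28.4 points (−35.5 to −20.9). At 14 to 20 tags the shares were 56.5% and 81.6%, and at 21 to 50 tags they were 74.7% and 86.7%, a difference of −12.0 points (−18.7 to −6.19). At 51 or more tags, where only 47 members were left, they were 74.5% and 88.3% (−13.8 points, −27.8 to −3.50). CpG-rich promoters were thus more frequent among the stronger members, from 42.9% to 74.5%, yet lower than at shared promoters in each of the 4 classes.

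Divergent promoters, where another protein-coding gene starts on the opposite strand within 1 kb upstream, were also scarcer. They made up 37 members (5.15%; 3.76 to 7.01) and 17.1% of shared promoters, a difference of −12.0 points (−13.6 to −9.98). The mirrored class was at 4.14%, with an interval of the difference that included 0 (−0.687 to 3.03). For 34 of these 37 members the partner gene was a member as well, so that such pairs are counted from both sides, and the overlap of their windows makes this likely by construction. An example is NDUFA7, a subunit of respiratory complex I, and RPS28, a ribosomal protein, which share a peak of 32 tags. At like strength the interval of the difference from shared promoters stayed below 0 in the classes of 9 to 13, 14 to 20 and 21 to 50 tags, and it included 0 at 51 or more, where 7 of 47 members (14.9%) and 21.3% of shared promoters were divergent. Genes whose canonical transcript spans over 100 kb made up 15.4% of members and 16.1% of shared promoters, a difference of −0.691 points whose interval included 0 (−3.27 to 2.23).

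**Figure D2:**
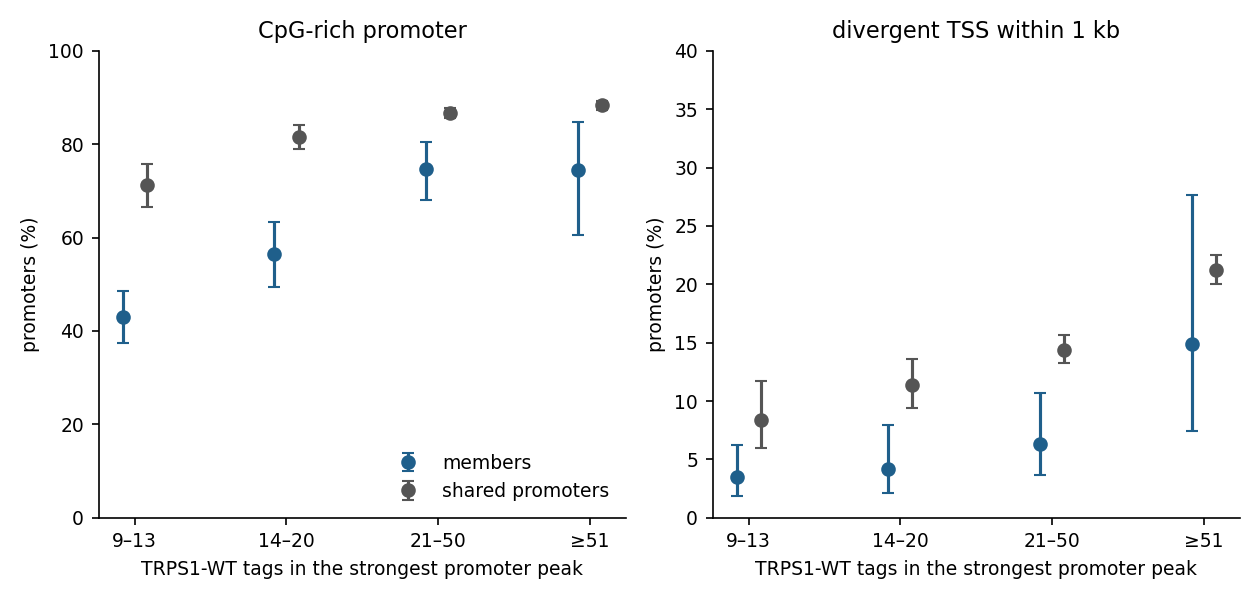
Percent of promoters (vertical axes) that were CpG-rich (left) or had a divergent protein-coding TSS within 1 kb (right), for members and shared promoters in 4 classes of TRPS1-WT tags in the strongest promoter peak (horizontal axis), with 95% Wilson intervals. Members lie below shared promoters in each class of both panels. CpG-rich shares run from 42.9% against 71.3% at 9 to 13 tags to 74.5% against 88.3% at 51 or more. The plotted intervals for divergent promoters overlap at 9 to 13 tags and at 51 or more.

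Of 12 sequences searched within 100 bp of the summits, the SP/KLF box GGGCGG was the most frequent in the members. It was present in 259 of 755 windows (34.3%; 31.0 to 37.8), against 14.9% of windows of equal length centred 1000 bp to each side of the same summits, a difference of 19.4 points (15.6 to 23.3). It was in 43.4% of the TRPS1-WT windows at shared promoters, in 20.7% of the TRPS1-MT windows of the mirrored class and in 53.8% of windows centred on all canonical TSSs. The members therefore differed from the mirrored class by 13.6 points (9.89 to 17.4) and from shared promoters by −9.14 points (−12.6 to −5.54). At like strength the intervals of the latter difference included 0 in all 4 classes, with 24.2% against 30.4% at 9 to 13 tags. The difference from the mirrored class was not compared at like strength. Its summits come from the other library, where the narrowest peak was 280 bp in place of 168 bp. GC content moved with these shares: the median was 59.7% in the summit windows of members and 49.8% in their flanks.

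Other sequences of CpG-rich promoters were less common in members than in shared promoters. The ETS sequence CCGGAAG was in 4.11% of member windows and 8.50% of shared ones, a difference of −4.39 points (−5.72 to −2.65). NRF1 sequences (GCGCATGC or GCGCCTGC) were in 4.37% and 7.34%, and the NFY box CCAAT was in 23.8% and 29.6%. The YY1 sequence AAGATGGC was in 0.927% and 2.19%. In contrast, the TATA sequence TATAAA was in 6.62% of member windows and 3.45% of shared ones (3.17 points, 1.56 to 5.20), although it was in 10.3% of the members' own flanks. It was in 8.25% of windows of the mirrored class and in 6.61% of windows on all canonical TSSs. None of the differences in this paragraph was compared at like strength. The CRE TGACGTCA, bound by CREB proteins, was in 7 member windows (0.927%), one of them at AHCYL1 and one at STARD3NL.

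The GATA sequences, to which the DNA-binding domain of TRPS1 is related, were not concentrated at the summits of members. They were in 140 windows (18.5%; 15.9 to 21.5), against 22.8% of the flanks, a difference of −4.24 points (−7.64 to −0.666), and in 17.4% of shared windows, from which the members differed by 1.15 points (−1.57 to 4.17). Of windows on all canonical TSSs 10.0% held one. Summits also held fewer GATA matches than flanks at shared promoters (17.4% against 25.1%) and in the mirrored class (20.5% against 23.5%). GC content was higher at member summits than in their flanks (medians 59.7% and 49.8%), and its part in the GATA shares was not tested. By strength, 24.9% of members with 9 to 13 tags had a GATA match and 3 of 47 (6.38%) with 51 or more, against 18.8% of shared promoters in the latter class, the only one of the 4 in which the interval of the difference lay off 0 (−16.8 to −1.58). The 3 were TAF12, KRT15 and S100A16, the last named after its values were seen.

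The AP-1 sequences TGACTCA and TGAGTCA, bound by FOS and JUN proteins, were in 21 member windows (2.78%) and 1.85% of their flanks, with an interval of the difference that included 0 (−0.327 to 2.47). The E-boxes CAGGTA and CAGGTG, bound by ZEB and SNAI proteins, were in 26.1% of member windows, 25.1% of their flanks and 21.2% of shared windows, 4.91 points more than the latter (1.80 to 8.26). They were in 25.5% of windows of the mirrored class, with an interval of the difference that included 0 (−2.94 to 4.29). Neither difference was compared at like strength. Of the 20 strongest members, AXL, SOWAHB, KRT15, ANKRD46 and AHCYL1 held an E-box. The TEAD sequence CATTCC was in 7.95% of member windows and 10.3% of their flanks. A CTCF sequence, searched by its consensus, was in 4 member windows.

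**Figure D3:**
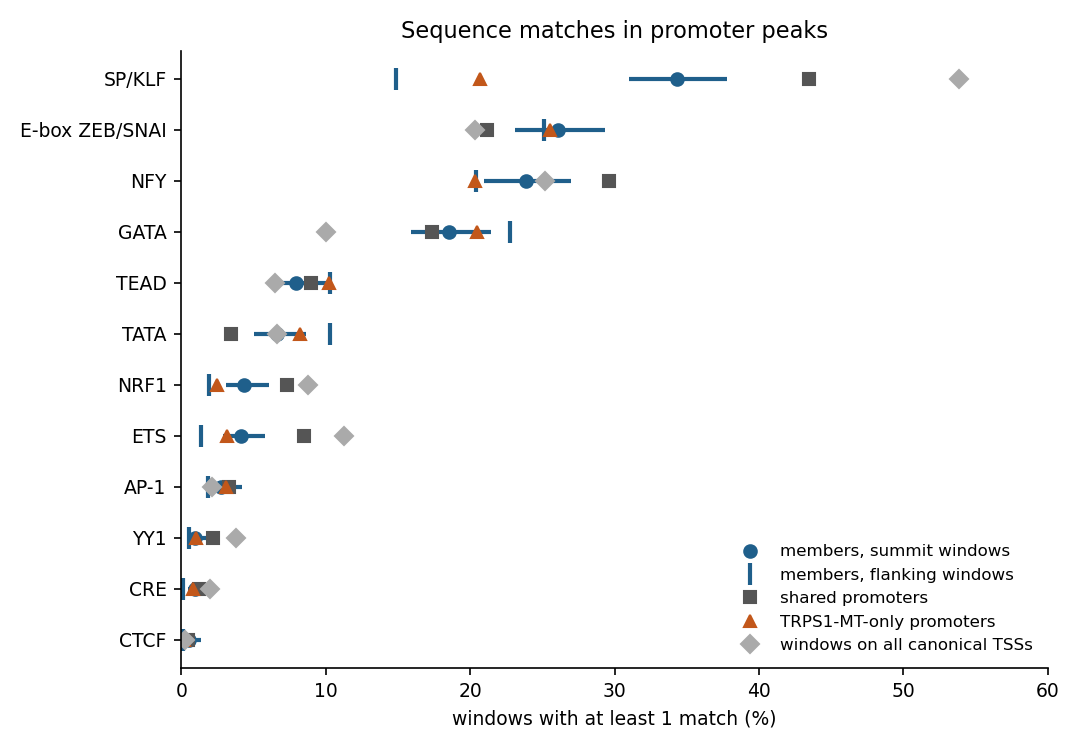
Percent of 201 bp windows with at least 1 match (horizontal axis) for each of the 12 sequences (vertical axis) in member summit windows (circle, with the 95% Wilson interval as a bar), their flanks (tick), shared promoters (square), the mirrored TRPS1-MT class (triangle) and windows on all canonical TSSs (diamond). SP/KLF has the widest gap between member summits (34.3%) and flanks (14.9%), and GATA lies below its flanks (18.5% against 22.8%).

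The genes were spread over many functions. Of 2527 genes in 23 functional lists, 87 were members, and the other 632 members were in none of the lists. A share of 3.63% is the background for each list. Genes of the epithelium and its transitions were members at shares near this background: MARVELD3, of tight junctions, with 17 tags, was the only 1 of 32 junction and keratin genes on the list used, SNAI3, a SNAIL family repressor, with 9 tags, 1 of 15 EMT transcription factors, and LUM, the matrix proteoglycan lumican, with 18 tags, 1 of 35 mesenchymal and matrix genes. The keratin gene KRT15, with 159 tags, was a member outside the list of junction and keratin genes. None of 28 intestinal genes, 22 genes for GATA factors, TRPS1 and their cofactors, 35 TGF-beta and BMP pathway genes or 24 p53 targets was a member. Of the p53 targets 16 were shared promoters, as were 16 of the TGF-beta and BMP genes and 9 of the GATA group. Of 54 Wnt genes 3 were members: TCF7, a nuclear effector of the pathway, with 37 tags; FZD3, a receptor, with 36; and NKD1, a feedback inhibitor, with 23.

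Genes of basic cell functions mostly had shared promoters, and their shares of members had intervals that held the background. None of the 39 proteasome genes and none of the 65 replication and repair genes on the lists used was a member, while 34 and 59 were shared. Replication and repair genes outside that list were members, such as GINS2 with 24 tags and MLH3 with 17, both named after their values were seen. NDUFA7 was the only member of 86 oxidative phosphorylation genes, and CFAP157 the only one of 105 ciliary genes on the list, with 15 tags. TCTN2 of the ciliary transition zone, with 56 tags, was a member outside that list. Cytosolic ribosomal proteins were 5 of 83 (6.02%; 2.60 to 13.3), among them RPS16 with 51 tags, RPS28 with 32, RPL17 with 29 and RPS3 with 25. These 4 promoters were CpG-rich and had the midpoint within 200 bp of the TSS.

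The members named here from the lists of olfactory receptors, immune cell genes and cytokines held at most 22 tags. Olfactory receptors were 18 of 405 (4.44%; 2.83 to 6.92), a share whose interval holds the background, with 9 to 22 tags, the highest at OR13A1. Of the 38 olfactory receptors with a TRPS1-WT peak 18 (47.4%) were members and 11 were shared, where 6.99% of all promoters with such a peak were members. Over all genes 39.9% of promoters with at most 10 tags and 32.1% of those with 11 to 13 were members. Olfactory receptors were not compared with other genes at like tags, so the part of low tag numbers in their share was not tested. None of the 18 had a CpG-rich promoter. Immune cell genes were 3 of 40: LCK, a kinase of T cells, with 22 tags, CD163, a scavenger receptor of macrophages, with 16, and CD3E, a chain of the T cell receptor complex, with 9. The share of 7.50% (2.58 to 19.9) had an interval that held the background. Cytokines were 7 of 114 (6.14%; 3.01 to 12.1), with 20 tags at IL17D, 16 at CXCL13, 15 at IL22 and 12 at CCL16.

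HOX genes, which set position along the body axis, were 4 of 39 (10.3%; 4.06 to 23.6), with HOXA13 at 20 tags, HOXB4 at 16 and HOXB2 and HOXD13 at 9. Theirs was the only 1 of the 23 lists with an interval above the background, on genes that lie in clusters and in part at the lowest tag number called, and only 2 HOX genes were left when a −log10 p of at least 10 was required. Channel genes were 8 of 161, led by the potassium channel KCNK5 with 25 tags and the sodium channel SCN1A with 21. On a list limited to G protein-coupled receptors of amines and nucleotides and orphan receptors, 4 of 162 were members. They were HTR1A at 17 tags, GPR35 at 12, ADGRL4 at 11 and GPR135 at 9. Other G protein-coupled receptors were members outside this list, such as CCKBR with 25 tags, named after its values were seen. Solute carriers were 10 of 373 (2.68%; 1.46 to 4.86), led by SLC12A9 with 28 tags, SLC25A22, a mitochondrial glutamate carrier, with 24, and SLC17A9, a vesicular nucleotide transporter, with 18. Genes named ZNF, most of them for KRAB zinc finger repressors, were 16 of 511 (3.13%; 1.94 to 5.03), led by ZNF850 with 38 tags, ZNF174 with 33 and ZNF765 with 29. Metalloproteases were 3 of 68 (MMP25, ADAMTS16 and ADAMTS8, with 18, 17 and 11 tags). In the other 22 lists the interval of the share held the background.

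Of the genes the study lists as changed in RNA between its TRPS1-WT and TRPS1-MT cells, a list chosen in part on HCT116 cells and therefore not independent, 152 were matched and 8 were members (5.26%; 2.69 to 10.0), an interval that holds the background of 3.63%. Another 66 were shared promoters and 21 were in the mirrored class. The 4 strongest of the 8 were SOWAHB with 66 tags, FAM83B with 37, MARVELD3 with 17 and EPPK1, the cytoskeletal linker epiplakin, with 16. At MARVELD3 and EPPK1 the midpoint lay inside the gene, at 795 bp and 985 bp from the TSS. None of the 7 epithelial marker genes was a member, 3 of them were shared promoters, and the haematopoietic marker CD3E was 1 of 4.

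Members were found on all 23 chromosomes, at unequal rates. The share of canonical promoters that were members was highest on chromosome 22, at 29 of 444 (6.53%; 4.59 to 9.22), and chromosome 20, at 33 of 546 (6.04%; 4.34 to 8.37), where it reached 12.9% and 11.5% of the promoters with a TRPS1-WT peak. It was lowest on chromosome 3, at 23 of 1081 (2.13%; 1.42 to 3.17), and chromosome 10, at 16 of 719 (2.23%; 1.37 to 3.58). Of the 23 intervals, those of chromosomes 22, 20 and 1 (91 of 2025, 4.49%; 3.67 to 5.49) lay above the 3.63% of all promoters and those of chromosomes 3 and 10 below it. The mirrored class was also most frequent on chromosome 22, at 13.5% of promoters against 10.1% of all. It was at 10.8% on chromosome 20 and at 11.7% on chromosome 3. WFDC10A on chromosome 20 was the only one of the 20 strongest on chromosome 20 or 22. Most member genes had a single member peak (662 of 719), 54 had 2 and 3 had 3, and 735 of the 755 peaks served 1 member promoter each.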

How the data were processed

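Flag CUT&Tag was performed on HCT116 cells with TRPS1-WT or TRPS1-MT, 1 library each, grouped by the genotype in the labels. Reads were filtered by the authors, aligned to hg19 (Bowtie 0.12.8) and passed to MACS library by library; the submitters' processing notes name Bowtie 0.12.8 and HOMER, and both hg19 and hg38. All peak ends fitted the GRCh37 chromosome lengths. The authors deposited, per peak, the fold or ratio of summit pileup over local background, −log10 p, −log10 q, a score derived from −log10 q, and the summit's offset. The layout is that of MACS2, whereas an older release is named in the methods. Depth per library is not given, and the smallest −log10 q was 4.00 in both lists. The narrowest peak (168 bp in TRPS1-WT, 280 bp in TRPS1-MT) sets how finely a position is known.

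Tags were recovered from the fold and −log10 p with the Poisson model of MACS2, on which they rest (tolerance 0.01 in −log10 p); 3 TRPS1-WT and 4 TRPS1-MT peaks gave no value. Canonical TSSs were those of GENCODE release 44 mapped to GRCh37; 279 protein-coding genes without a canonical transcript were left out, and 7 symbols stood for 2 genes. Shares were given with Wilson intervals, differences of shares with Newcombe intervals and tags with exact Poisson intervals; promoters and peaks are not replicates, and no p-value was computed. Sequences were searched in 201 bp windows on both strands and counted once per window.

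The members and gene lists were chosen with earlier results of these data known, and the 4 classes of tags and the count of peaks within 20 kb of members were added after the data were seen. Named genes were the 20 members with the strongest peak by −log10 p, up to 4 per gene list, and the 3 nearest each limit of the rule; sequences were printed for the 6 strongest outside chromosome 8. Names of 172 genes from the study's RNA list were matched to 152 genes, 145 directly and the rest through synonyms; its values were not used. Some genes are not reported here. Steps were tested on simulated data: tags were recovered for 100% of 5000 peaks, classes were as by direct comparison for 100% of 400 TSSs and 100% of 36 planted sequences were found. Sequences were read with pysam 0.24.0, figures drawn with matplotlib 3.10.9, and statistics computed with scipy 1.17.1, numpy 2.4.6 and pandas 2.3.3 in Python 3.11.15.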

Additional observations from a re-analysis of the deposited data

How the results depend on the processing

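The number of members rests on the limits of the rule. Requiring a −log10 p of at least 10 left 466 members (2.26% of promoters; 65.2% CpG-rich), a TRPS1-WT midpoint within 500 bp left 482 (2.42%), and a window free of TRPS1-MT peaks of 5 kb on each side left 262 (1.23%), of which 48.1% were CpG-rich and 1.65% divergent. A window of 1 kb on each side gave 1269 (6.11%; 62.8% CpG-rich), and cutting the TRPS1-MT list to as many peaks as the TRPS1-WT list gave 1305 (6.23%; 61.2% CpG-rich). Of the 20 strongest members 4 were kept with the 5 kb window (WFDC10A, VKORC1L1, STARD3NL and JRK) and all 20 with the 1 kb window. The summit in place of the midpoint changed little. The most upstream TSS of each gene gave 735 promoters, 600 of them among the 719, and 50.7% CpG-rich; TAF12, KRT15, MIDEAS and FBXO31 were then lost. Under each of these 7 alternatives CpG-rich and divergent promoters were less frequent in members than in shared promoters, by −38.1 to −21.8 and by −15.5 to −10.8 points. Genes in any functional list numbered 43, 36 and 152 with the −log10 p limit, the 5 kb window and the shortened TRPS1-MT list, in place of 87.

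Within 50 bp of the summit, matches fell to 10.5% (GATA), 21.3% (SP/KLF) and 1.32% (AP-1). With the −log10 p limit GATA was at 15.0% and SP/KLF at 40.3%, and with the 5 kb window SP/KLF was at 25.6%. In flanks at 2000 bp GATA was at 27.4%, SP/KLF at 6.16% and AP-1 at 3.58%, so that AP-1 lay below its flanks by −0.795 points (−2.22 to 0.859) where it had been above those at 1000 bp. Of the 47 values of the counts, shares and 3 sequences given above under an alternative, 28 moved beyond the interval or by over 1.5 times, as did 49 of 114 for the 9 other sequences and the single gene lists. The cause was not tested. With the −log10 p limit, the 5 kb window and the shortened TRPS1-MT list, members numbered 2, 1 and 6 for HOX genes, 5, 0 and 6 for ribosomal proteins, and 4, 12 and 25 for olfactory receptors. No paired analysis was possible because each condition had 1 library; no replicate could be left out for the same reason. Depth limits every absence from the TRPS1-MT list to an absence of a called peak.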
